A study of Mus musculus with 8 samples.

Results

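The nuclear pore and nuclear envelope genes are 37 named genes that encode nucleoporins, lamins, proteins of the inner nuclear membrane and the chromatin-bridging protein Banf1. They were listed by name, with earlier results of these data known, and all 37 were found among 21887 protein-coding genes of the mouse mm10 gene table. Of them, 28 encode pore proteins and 9 encode envelope proteins. Binding of APOBEC2, a member of the AID/APOBEC family of cytidine deaminases with no established substrate, was profiled by chromatin immunoprecipitation and sequencing in C2C12, a line of mouse myoblasts able to form myotubes. Differentiation was started with 2% horse serum. The titles place the harvests at 14 h and 34 h, while the growth protocol names 24 h for the earlier one, so that time is uncertain. Each time had 3 libraries immunoprecipitated (IP) with a polyclonal rabbit antibody to APOBEC2 and 1 input library. The names of the deposited lists of all 6 IP libraries and of both inputs carry the tag GFPsh, which the labels do not explain. No library from cells lacking APOBEC2 and none made with a control antibody was used here, and the labels do not say that the replicates were separate cultures.

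Nuclear pores are ring-shaped channels through the nuclear envelope that carry all traffic between nucleus and cytoplasm. Their scaffold is built from the Y-shaped Nup107-Nup160 complex and from the inner ring, and the other nucleoporins line the channel, extend from either face or anchor the ring in the membrane. Beneath the inner membrane lies the lamina, a mesh of lamin filaments that is tied to chromatin through membrane proteins and Banf1. In muscle the composition of the pore is known to shift during differentiation, and defects in the lamina proteins encoded by Lmna and Emd cause muscular dystrophy.

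A gene was counted as having a peak when a called peak lay inside it or within 1 kb of its start or end, and the peak counted as reproducible where 2 or more of the 3 libraries from the same time had one at the gene. For orientation, the promoters of 7 members are shown first. They were picked for holding a motif of cell-cycle promoters, 6 of them under a reproducible peak and 1, of Nup98, without one. All are from RefSeq on GRCm38.p6 (mm10 coordinates), read 5′ to 3′ on the strand of the gene, from 150 bases before the annotated start. Capitals mark matches to the cell-cycle homology region (CHR, TTTGAA or TTCGAA), the CCAAT box (CCAAT) or an E2F element (TTTCCCGC, TTTGGCGC or TTTCGCGC), on either strand. Nup37, a Y complex subunit, lies at chr10:88146842-88147021 on the plus strand. Ndc1 and Pom121, both membrane anchors of the pore, lie at chr4:107367897-107368076 on the plus and chr5:135394517-135394696 on the minus strand. Lbr, the lamin B receptor, lies at chr1:181842372-181842551 on the minus strand, Tmpo, which encodes the LAP2 proteins, at chr10:91170521-91170700 on the minus strand, and Nemp2, an inner membrane protein, at chr1:52630555-52630734 on the plus strand. Nup98, a mobile channel nucleoporin without a reproducible peak, lies at chr7:102210137-102210316 on the minus strand.
Nup37: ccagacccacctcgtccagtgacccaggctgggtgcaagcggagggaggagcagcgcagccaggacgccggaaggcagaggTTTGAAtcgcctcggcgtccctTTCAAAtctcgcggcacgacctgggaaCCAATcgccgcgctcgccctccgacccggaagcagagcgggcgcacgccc
Ndc1: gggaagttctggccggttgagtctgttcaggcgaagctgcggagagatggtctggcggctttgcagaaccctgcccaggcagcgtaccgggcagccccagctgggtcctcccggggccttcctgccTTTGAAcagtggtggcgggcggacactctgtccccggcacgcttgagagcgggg
Pom121: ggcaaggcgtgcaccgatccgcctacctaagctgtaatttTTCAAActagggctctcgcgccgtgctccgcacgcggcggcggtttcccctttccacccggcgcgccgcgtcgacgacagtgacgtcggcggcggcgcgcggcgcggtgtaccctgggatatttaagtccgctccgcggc
Lbr: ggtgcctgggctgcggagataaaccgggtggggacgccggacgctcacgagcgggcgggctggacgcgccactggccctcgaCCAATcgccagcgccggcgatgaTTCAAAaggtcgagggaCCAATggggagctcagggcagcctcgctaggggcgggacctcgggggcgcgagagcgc
Tmpo: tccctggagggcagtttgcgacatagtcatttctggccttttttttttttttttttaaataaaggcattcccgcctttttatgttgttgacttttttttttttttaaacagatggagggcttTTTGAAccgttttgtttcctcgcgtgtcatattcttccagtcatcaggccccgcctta
Nemp2: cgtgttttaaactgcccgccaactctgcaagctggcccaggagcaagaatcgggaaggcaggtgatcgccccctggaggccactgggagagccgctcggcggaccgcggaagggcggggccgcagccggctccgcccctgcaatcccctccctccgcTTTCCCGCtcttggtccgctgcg
Nup98: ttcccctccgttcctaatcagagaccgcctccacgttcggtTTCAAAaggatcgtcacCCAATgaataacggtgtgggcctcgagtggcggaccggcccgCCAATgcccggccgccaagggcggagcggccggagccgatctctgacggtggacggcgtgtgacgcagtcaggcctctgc

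The median summit of the peaks fell inside the printed stretch in 6 of the 7 promoters. It lay 28 bp before the start of Nup37, 17 bp before that of Ndc1, 68 bp before that of Pom121, 75 bp before that of Lbr, 83 bp before that of Tmpo and 123 bp before that of Nemp2. The single Nup98 peak, found in 1 library, had its summit 234 bp before the start, outside the stretch shown. Counting the start as position 0, the Nup37 promoter holds CHR matches at positions -69 to -64 and -47 to -42 and a CCAAT box at -20 to -16. The CHR match of Ndc1 lies at -24 to -19, that of Tmpo at -28 to -23, that of Lbr at -45 to -40 and that of Pom121 at -110 to -105. The E2F match of Nemp2 is downstream of its start, at 7 to 14. Nup98 carries a CHR match at -109 to -104 and 2 CCAAT boxes, so these letters also occur at a member without a reproducible peak. Sec13, with a CHR match, and Nup210 and Banf1, with E2F matches, are not shown and also had no reproducible peak. Tpr, with a CHR match and a reproducible peak at 34 h, is not shown either. The split of 6 and 1 among the printed promoters was set by their choice.

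Promoter windows of 300 bp, from 250 bases before to 50 after the start, were available for 32 of the 37 members and gave 39 windows. Of these, 21 windows, from 19 genes, were overlapped by a reproducible region and 18 were not. A CHR match was present in 7 of the 21 windows (33.3%), from 6 genes, and in 2 of the other 18 (11.1%), against 19.2% of all 32851 windows in the table. The CHR is an element of promoters that fire late in the cell cycle, often beside CCAAT boxes. A CCAAT box was present in 10 of 21 (47.6%) and 7 of 18 (38.9%), against 37.4% of all. An E2F match was present in 2 of 21 and 2 of 18, against 1.84% of all. The GC box GGGCGG was present in 13 of 21 (61.9%) and 13 of 18 (72.2%), against 35.7% of all. GC boxes are sites of SP factors and are typical of CpG-rich promoters of housekeeping genes. The ETS element CCGGAAGT was present in 3 of 21 and 3 of 18 (3.89% of all), the YY1 element AAGATGGCG in 3 of 21 and 2 of 18 (1.4% of all), and the NRF1 element (GCGCA followed directly by TGCGC) in 2 of 21 and 1 of 18 (0.971% of all). Both strands were searched, matches to E2F, CHR and CCAAT letters overlapped in 0 cases, and the pair of Nup37 windows share most of their bases. These are descriptions of letters in a window and not of bound factors.

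Across the members, 22 of 37 (59.5%) had a reproducible peak at 14 h and 24 (64.9%) at 34 h, where the background over all protein-coding genes was 4.27% and 9.01%. At both times 20 members (54.1%) had one, against 3.5% of all genes. Most members with a reproducible peak at 1 time therefore also had one at the other. A peak in all 3 libraries was present at 18 members at 14 h and at 16 at 34 h, against 2.96% and 3.95% of all genes. In all 6 libraries 13 members (35.1%) had a peak, against 2.26% of all genes: Aaas, Ahctf1, Lmnb1, Ndc1, Nemp1, Nemp2, Nup133, Nup160, Nup214, Nup37, Nup43, Nup62 and Tmpo. At either time or both 26 members had a reproducible peak, against 9.78% of all genes. Peaks were not spread over all members. The remaining 11 members had a reproducible peak at neither time, against 90.2% of all genes, and 6 of these had no peak in any library, against 79.8% of all genes. All protein-coding genes served as background whether or not C2C12 cells express them, and no expression values were used here. Members were longer than genes in general, with a median of 31.4 kb against 17.2 kb, and a longer gene offers more room for a peak. Counting only peaks within 1 kb of a gene boundary left 18 members at 14 h and 20 at 34 h, against 3.87% and 7.36% of all genes.

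By library, members with a peak numbered 18, 25 and 22 in replicates 1, 2 and 3 at 14 h, where 3.72%, 6.5% and 3.97% of all genes had one. At 34 h they numbered 24, 30 and 16, where 9.24%, 18.1% and 4.7% of all genes had one. The highest and the lowest count both came from 34 h. The mean share was 58.6% ± 9.49 (SD, n = 3) at 14 h and 63.1% ± 19 (SD, n = 3) at 34 h, and the libraries of the 2 times overlapped. Over all genes the same share was 4.73% ± 1.54 (SD, n = 3) and 10.7% ± 6.82 (SD, n = 3). Between 768 and 1327 peaks had been called per library at 14 h and between 1068 and 5025 at 34 h, and the lists thus differed in length. Among members the count did not follow length throughout: 34 h replicate 3, with 1068 peaks, reached 16, and 14 h replicate 3, with 797, reached 22. When only the top 768 peaks by p-value, the length of the shortest list, were kept per library, 20 members had a reproducible peak at 14 h, 14 at 34 h and 13 at both, against 3.76%, 3.16% and 2.39% of all genes. The largest list, that of 34 h replicate 2, was the only one with a peak at Seh1l, Nup98, Lmna or Banf1. Pore members had a peak in 58.3% ± 8.99 (SD, n = 3) of cases at 14 h and 59.5% ± 21.8 (SD, n = 3) at 34 h. Envelope members had one in 59.3% ± 12.8 (SD, n = 3) and 74.1% ± 12.8 (SD, n = 3), and the ranges of the pore and envelope shares overlapped at both times.

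**Figure D1:**
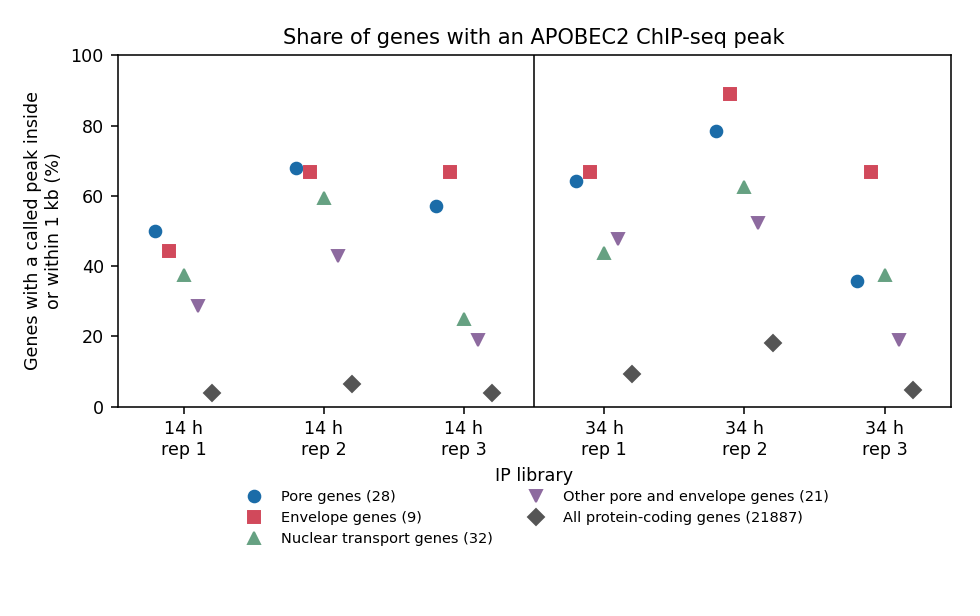
Share of genes with a called APOBEC2 peak inside the gene or within 1 kb (y axis, %) in each of the 6 IP libraries (x axis), for 28 pore members, 9 envelope members, 32 nuclear transport genes, 21 other pore and envelope genes and all 21887 protein-coding genes. Each point is 1 library; the member groups lie above all genes in every library, and 34 h replicate 2, with the longest list, has the highest share of every group.

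In the Y complex, 7 of 9 members had a reproducible peak, the same 7 at 14 h and at 34 h, and all 7 had it in each of the 3 libraries of 14 h. Of all genes, 4.27% had a reproducible peak at 14 h and 9.01% at 34 h, and 2.96% had one in all 3 libraries of 14 h. The fold given below is the authors' value for a peak, the IP signal at its summit over the local background. It describes a peak within the list of its own library. Means and SDs over the lists of a time are descriptions, and folds were not tested between lists or times. Ahctf1 encodes ELYS, which recruits the Y complex to chromatin when pores form after mitosis. Its peak, at chr1:179803481-179804017, had folds of 22.8, 30.3 and 22.1 in replicates 1, 2 and 3 at 14 h and of 12.7, 22.6 and 10.9 at 34 h. The mean was 25.1 ± 4.58 (SD, n = 3) at 14 h and 15.4 ± 6.30 (SD, n = 3) at 34 h. Ahctf1 had the highest fold of any member in every library of 14 h, its 6 summits lay within 15 bp of each other, 265 bp downstream of the start, and they stood on 52 to 114 fragments. A further peak of Ahctf1, farther inside the gene, had a fold of 4.75 in 34 h replicate 2. Nup37 had the highest fold of any member in every library of 34 h. Its folds were 15.5, 21.1 and 21.8 at 14 h and 17.4, 24.3 and 15.8 at 34 h, at chr10:88146732-88147134, with means of 19.5 ± 3.41 and 19.2 ± 4.51 (SD, n = 3). The same region is within 1 kb of Parpbp, so the peak cannot be assigned to 1 of the 2 genes, and the printed Nup37 promoter lies inside it.

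Nup133 and Nup160, a stalk and an arm subunit of the Y complex, and Nup43, a small accessory subunit, also had a peak in all 6 libraries. The folds of Nup133 were 11.8, 23.7 and 11.3 at 14 h and 12.6, 11.6 and 7.73 at 34 h, at chr8:123949071-123949418, across the start. Those of Nup160 were 14.0, 20.1 and 14.1 at 14 h and 6.84, 11.1 and 8.87 at 34 h. Unlike most member regions, the Nup160 region, at chr2:90678940-90679583, was interior to the gene, with a median summit 2169 bp downstream of the start and summits spread over 296 bp. Nup43 stood at the low end of the 13 members found in all libraries. Its folds were 6.12, 6.24 and 9.21 at 14 h and 5.94, 9.37 and 4.54 at 34 h. Nup107, the stalk subunit next to Nup133, had folds of 5.82, 12.3 and 8.84 at 14 h and of 7.84 and 10.7 in replicates 1 and 2 at 34 h. Nup85, an arm subunit, had folds of 11.9, 20.4 and 15.1 at 14 h and of 4.88 and 8.05 in the same replicates at 34 h. Neither had a called peak in 34 h replicate 3. Seh1l, which binds Nup85, had a single peak of fold 6.07 in 34 h replicate 2. At 14 h the nearest peaks to Seh1l lay 4.31 to 4.38 kb away, at the neighbouring gene Cep192, with folds of 11.3 to 25.3. Sec13, shared between the pore and the COPII coat of secretory vesicles, had no peak in any library, and its nearest peak was 30.8 kb away.

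The inner ring, the other part of the scaffold, had 3 of 5 members with a reproducible peak at each time and 2 at both. Of all genes, 4.27% had one at 14 h, 9.01% at 34 h and 3.5% at both. No inner ring member had a peak in all 6 libraries, where 5 of 9 Y complex members and 2.26% of all genes did. Nup205, a large structural subunit, had folds of 8.56, 12.0 and 7.30 at 14 h and of 6.03 and 5.70 in replicates 1 and 2 at 34 h. Nup93, the organiser of the ring, had folds of 5.35, 8.44 and 7.15 at 14 h and of 5.76 and 6.11 in the same replicates at 34 h. Both regions spanned the annotated start, with median summits 25 and 1 bp downstream of it. Nup155, which links ring and membrane, had folds of 7.85 and 6.43 in replicates 2 and 3 at 14 h and 5.18 in replicate 2 at 34 h. Nup35, another membrane-binding subunit, had no peak at 14 h and folds of 5.38 and 4.73 in replicates 1 and 2 at 34 h. Nup188 had none in any library, with the nearest peak 16.0 kb away. The 34 h count of the inner ring rests on replicates 1 and 2, since replicate 3 had no inner ring peak. With either of them left out, a peak was required in both remaining libraries, so the count was bound to be 0 of 5. With lists of equal length it was also 0.

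Set side by side within each library, the median fold was 11.9, 20.4 and 14.1 for the called Y complex peaks and 6.95, 8.44 and 7.15 for the called inner ring peaks at 14 h. At 34 h it was 7.84 and 5.76 in replicate 1 and 10.9 and 5.44 in replicate 2. In replicate 3 at 34 h, 5 Y complex members had a peak, with a median fold of 8.87, and 0 of 5 inner ring members did. The Y complex median was the higher in all 5 libraries with peaks in both, while single peaks overlapped. Nup43 lay within or below the range of the inner ring in 14 h replicates 1 and 2 and in 34 h replicate 1. So did Nup107 in 14 h replicate 1, Nup85 in 34 h replicate 1 and Seh1l in 34 h replicate 2. The genes with a peak numbered 7, 7 and 7 of 9 against 2, 3 and 3 of 5 at 14 h and 7, 8 and 5 of 9 against 3, 4 and 0 of 5 at 34 h. Of all genes, 3.72%, 6.5% and 3.97% had a peak in these libraries at 14 h and 9.24%, 18.1% and 4.7% at 34 h. The medians cover called peaks only, the Y complex and inner ring groups hold few genes, and their difference was not tested. Of genes with no other gene within 1 kb, 3 of 5 in the Y complex had a reproducible peak at each time. In the inner ring 3 of 4 did.

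**Figure D2:**
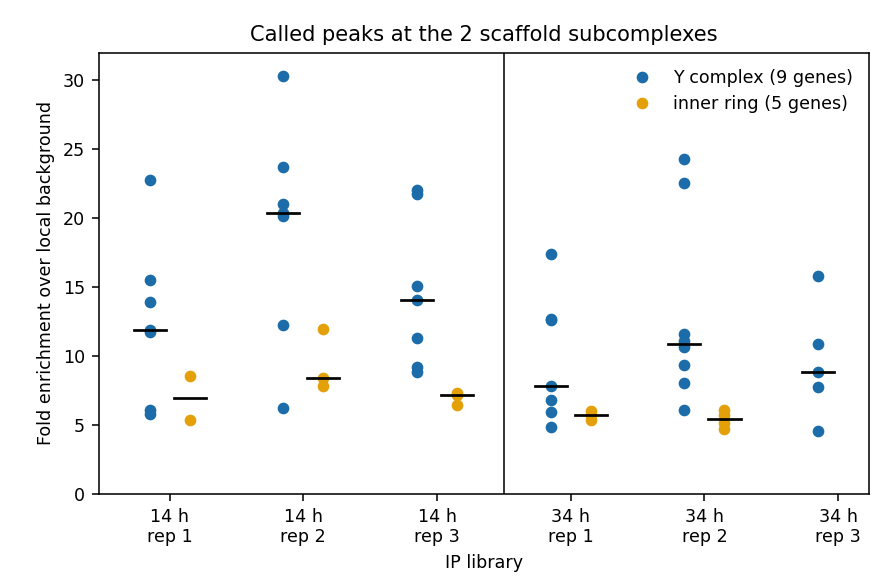
Fold enrichment at the summit of the most significant peak of each gene (y axis, linear, from 0) in each IP library (x axis), for the 9 Y complex genes and the 5 inner ring genes; a point is a gene with a called peak and the line is the median of the points. The Y complex median exceeds the inner ring median wherever both have peaks, single points overlap, and 34 h replicate 3 has no inner ring peak.

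Of the 3 channel nucleoporins, whose phenylalanine-glycine repeats form the permeability barrier, 1 had a reproducible peak at 14 h and 2 at 34 h. Of all genes, 4.27% and 9.01% had one. Nup62 had a peak in all libraries, with folds of 9.09, 10.7 and 7.71 at 14 h and of 6.69, 5.32 and 5.04 at 34 h. Its region, with a median summit 206 bp downstream of the start, is also within 1 kb of Atf5 and Il4i1b. Nup54, its partner in the channel, had no peak at 14 h and folds of 5.57 and 7.81 in replicates 1 and 2 at 34 h. Nup98 had 1 peak, of fold 4.51 in 34 h replicate 2, the lowest fold of all 148 member peaks.

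On the cytoplasmic side, 2 of 5 members had a reproducible peak at 14 h and 3 at 34 h, against 4.27% and 9.01% of all genes. Aaas, which encodes ALADIN, had folds of 12.5, 14.2 and 9.96 at 14 h and of 9.66, 10.9 and 7.90 at 34 h. Its region, chr15:102350523-102350927, had its median summit 57 bp downstream of the start. Nup214, part of the export platform that binds the helicase Ddx19, had folds of 6.68, 17.9 and 6.57 at 14 h and of 7.70, 7.66 and 6.81 at 34 h. Its region is also within 1 kb of Aif1l. Ranbp2, the large filament protein with SUMO ligase activity, had folds of 7.26 in replicate 2 at 14 h and of 6.28 and 8.95 in replicates 1 and 2 at 34 h. The 34 h peaks of Ranbp2 did not overlap each other, so its count at 34 h rests on different sites. Nup88 and Rae1, partners of Nup214 and Nup98, had no peak in any library, with the nearest peaks 34.4 and 260.7 kb away.

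The 3 nuclear basket members had no reproducible peak in common between times. Tpr, which forms the basket filaments, had a peak in replicate 2 alone at 14 h, of fold 6.31, and folds of 8.22, 9.76 and 8.74 at 34 h. Its region, chr1:150392783-150393585, is also within 1 kb of Odr4. Nup50, a mobile importin cofactor, went the other way, with folds of 5.74 and 5.37 in replicates 2 and 3 at 14 h and no peak at 34 h. Nup153, the basket anchor, had 1 peak at each time, of fold 4.99 in 14 h replicate 2 and 4.83 in 34 h replicate 2, at different sites. Among the 3 membrane members of the pore, Ndc1 and Pom121 had a reproducible peak at both times and Nup210 had none in any library. Of all genes, 3.5% had a reproducible peak at both times and 79.8% had none in any library. Ndc1 had folds of 11.4, 12.4 and 9.52 at 14 h and of 6.89, 8.41 and 5.89 at 34 h. Pom121 had folds of 7.13, 11.1 and 8.39 at 14 h and of 5.97 and 4.96 in replicates 1 and 2 at 34 h. Both had their median summit upstream of a start, within the printed promoter. The Pom121 region also lay inside the annotated span of its gene, 10067 bp from the nearest boundary. The nearest peak to Nup210, the pore protein known to be induced in differentiating muscle, was 218.1 kb away.

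In the envelope, 6 of 9 members had a reproducible peak, the same 6 at both times, against 3.5% of all genes at both times. The B-type lamin genes, which are expressed in nearly all cells, had one and Lmna, the A-type lamin gene linked to muscular dystrophy, did not. Lmnb1 had folds of 15.5, 20.5 and 11 at 14 h and of 13.6, 16.0 and 8.40 at 34 h, and was among the 6 highest of the 13 members found in all libraries in each of them. A further Lmnb1 peak, interior to the gene, had a fold of 6.11 in 34 h replicate 2. Lmnb2 had low folds, of 4.78 and 5.20 in replicates 2 and 3 at 14 h and 4.83 in replicate 2 at 34 h near its start. A separate region of Lmnb2, chr10:80900741-80901170, near its end and within 1 kb of Timm13, had folds of 4.56, 4.53 and 4.79 at 34 h and none at 14 h. Its peaks at 14 h and the majority at 34 h lay at opposite ends of the gene. The single peak of Lmna, interior to the gene, had a fold of 5.29 in 34 h replicate 2.

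Of the 5 inner nuclear membrane members, Lbr, Tmpo, Nemp1 and Nemp2 had a reproducible peak at both times, against 3.5% of all genes. Nemp2 had folds of 15.7, 24.2 and 16.1 at 14 h and of 13, 17.4 and 7.31 at 34 h. Its region, chr1:52630395-52630837, lies inside the annotated span of the gene but just upstream of the start in the promoter table, so it is interior to the gene and at a start. By fold Nemp2 held place 2 or 3 of the 13 members found in all libraries in 5 of them and place 8 in 34 h replicate 3. Nemp1, its relative, had folds of 8.71, 18.5 and 10.9 at 14 h and of 11, 12.3 and 8.49 at 34 h. Lbr, which joins B-type lamins and heterochromatin to the membrane and reduces sterols, had folds of 8.62 and 8.84 in replicates 2 and 3 at 14 h and of 8.17, 8.32 and 6.23 at 34 h. Lbr had no called peak in 14 h replicate 1.

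Tmpo was the only member with 2 separate regions in all 6 libraries, each upstream of a different annotated start. Both lay inside the annotated span of the gene, 10809 and 9836 bp from the nearest boundary. The first, chr10:91170391-91170943, had folds of 9.19, 14.4 and 9.63 at 14 h and of 7.07, 15.3 and 7.20 at 34 h. The other, chr10:91171498-91171916, had folds of 11.7, 11.9 and 8.27 at 14 h and of 8.11, 11.8 and 6.12 at 34 h. Their folds were alike within each time: 11.1 ± 2.89 and 10.6 ± 2.06 (SD, n = 3) at 14 h, and 9.85 ± 4.70 and 8.68 ± 2.90 (SD, n = 3) at 34 h. Tmpo also had an interior peak of fold 4.52 in 34 h replicate 2, and peaks of fold 5.82 in 14 h replicate 2 and 4.78 in 34 h replicate 2 just outside its annotated 5′ end. Emd, encoding emerin, had no peak in any library, its nearest being 9.1 kb away. Banf1, whose product binds DNA and the LEM-domain proteins encoded by Tmpo and Emd, had 1 peak of fold 4.53 in 34 h replicate 2, in a region also within 1 kb of Eif1ad.

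**Figure D3:**
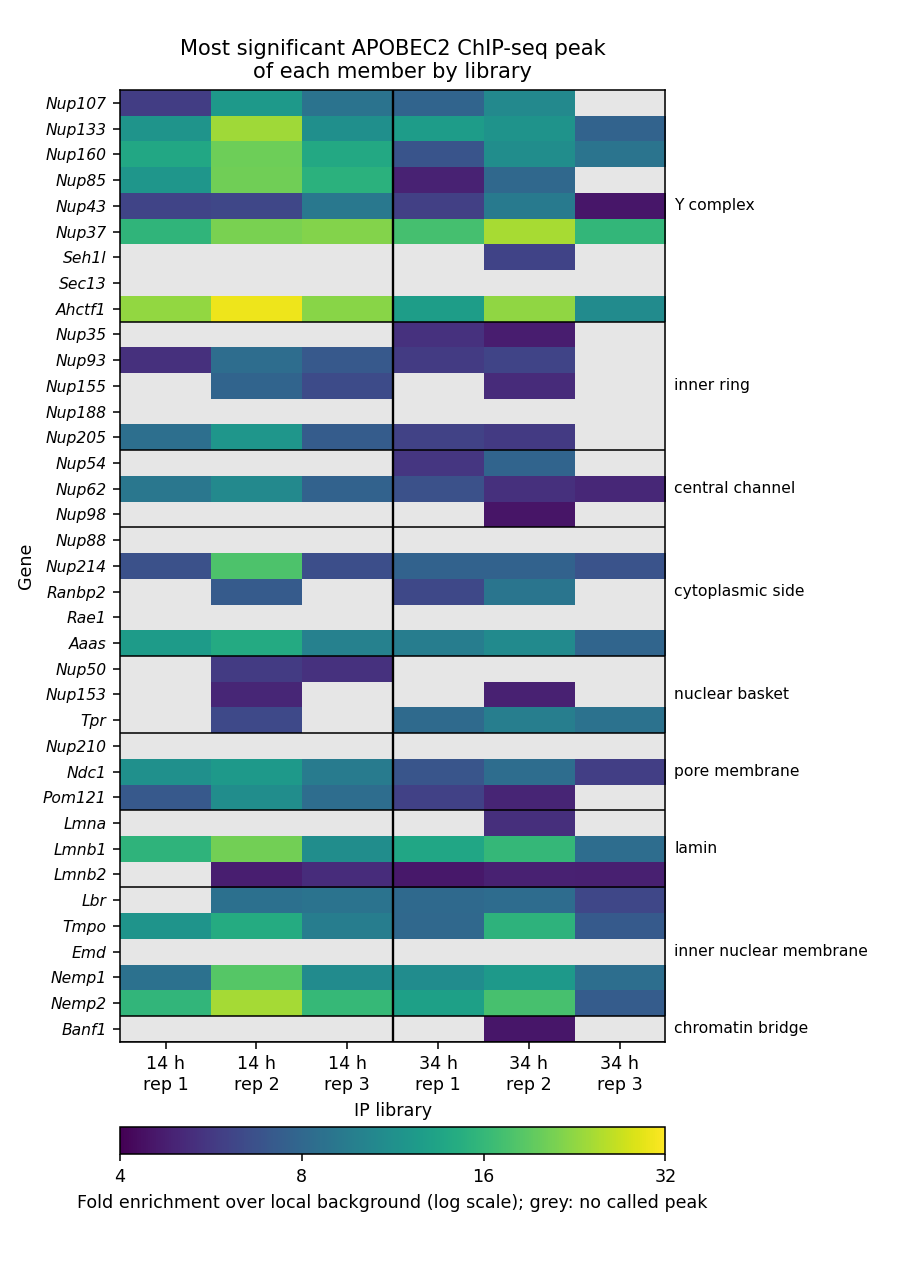
Fold enrichment of the most significant peak of each of the 37 members (rows, grouped by place in the pore or envelope) in each IP library (columns); colour is fold on a log scale from 4 to 32 and grey marks a library with no called peak. Ahctf1 has the highest fold in each 14 h column and Nup37 in each 34 h column, the inner ring is grey in 34 h replicate 3, and 6 rows are grey throughout.

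Whether the presence of a peak differed between times could not be decided for any member, because 3 against 3 libraries cannot give a p below 0.05. An exact two-sided permutation test of presence over 3 against 3 libraries gave its smallest value among members, p = 0.4, for Nup35, Nup54, Nup50 and Tpr, and 0.1 is the smallest that the design allows. After Benjamini-Hochberg adjustment over all 21887 genes the smallest adjusted p was 1, among members and among all genes. No member had a peak in all 3 libraries of 34 h and none at 14 h, or the reverse. Only 227 and 8 of all 21887 genes did, so both patterns were rare in general and their absence among 37 members is no contrast. With reproducible peaks as the measure, 2 members had one at 14 h and not at 34 h, Nup50 and Nup155, against 0.768% of all genes. Another 4, Nup35, Nup54, Ranbp2 and Tpr, had one at 34 h and not at 14 h, against 5.51% of all genes.

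Most reproducible member regions with a listed start lay near it. The same share was not computed over all peaks, so closeness to a start is not shown to be particular to members. The 148 member peaks merged into 39 regions, of which 27, at 25 genes, had a peak in at least 2 libraries of a time and 14 had one in all 6. The summits of a region found in all 6 libraries lay within 15 to 296 bp of each other, with a median range of 65 bp. A start was listed for 23 of the 27 regions. The median summit lay within 250 bp of it in 19, farther than 1 kb in 2, at Nup160 and at the end of Lmnb2, and between these in 2, at Ahctf1 and Tpr. It was downstream of the start in 12 and upstream in 11, so the summits had no common side. Summits of member peaks stood on 13 to 114 fragments, with a median of 25.5.

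**Figure D4:**
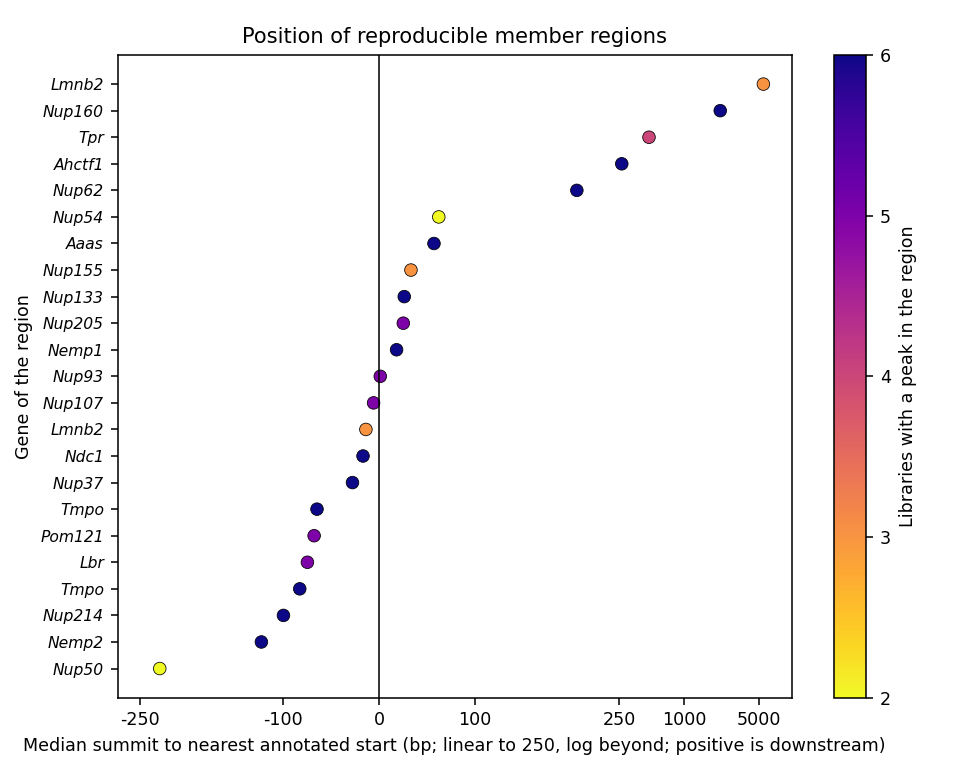
Distance from the nearest annotated start to the median summit (x axis, bp, linear to 250 and logarithmic beyond, positive downstream) for the 23 reproducible member regions with a listed start (y axis, by gene); colour gives the number of libraries, of 6, with a peak in the region. Of the 23 points, 19 lie within 250 bp of the start, on both sides of it, and Nup160 and 1 Lmnb2 region lie beyond 1 kb.

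Within each list, ordered by p-value, member peaks ranked above the list's median in 12 of 19, 18 of 27 and 13 of 23 cases at 14 h and in 19 of 26, 24 of 36 and 13 of 17 at 34 h. The median fold of member peaks was 11.4, 12.0 and 9.21 at 14 h, where the lists as a whole had 8.11, 7.99 and 8.47. At 34 h it was 6.98, 7.74 and 7.31 against 5.91, 5.70 and 6.03. In each of the 6 lists more than 50% of the member peaks thus lay above the median of the list and their median fold was above that of the list. The highest place of a member peak was that of Ahctf1 in 34 h replicate 2, at 14 of 5025. Ordered by fold among the 13 members found in all 6 libraries, Ahctf1 and Nup37 held places 1 to 4 in every library. Nup43 and Nup62 held places 10 to 13. The genes between them changed places: Nup160 ranged from 3 to 11 and Nemp1 from 4 to 11.

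Among 32 genes of nuclear transport, the machinery that works through the pore, 13 (40.6%) had a reproducible peak at 14 h, 16 (50%) at 34 h and 11 at both, against 4.27%, 9.01% and 3.5% of all genes. No peak in any library was found at 10 of them, against 79.8% of all genes. The Ran cycle, which gives transport its direction, stood highest with 5 of 6 genes at each time: Nutf2, Ran, Ranbp1, Rangap1 and Rcc1. Rcc1, the chromatin-bound exchange factor for Ran, had folds of 27.0, 32.2 and 26.4 at 14 h and of 19.4, 27.0 and 15.9 at 34 h. Exportins had one in 4 of 7 genes at 14 h and 3 at 34 h, the importin beta family in 3 and 5 of 11, importin alpha genes in 1 and 2 of 6, and the mRNA export pair Nxf1 and Nxt1 in 0 and 1. The 6 transport genes with a peak in all 6 libraries were the exportins Cse1l and Xpo1, the importins Ipo11 and Kpna2, and Ranbp1 and Rcc1. At both times Ipo5 and Kpnb1 also had a reproducible peak. Xpo4 and Xpo5 had one at 14 h and not at 34 h, and Ipo9, Kpna3, Nxt1, Tnpo1 and Xpot at 34 h and not at 14 h.

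Among 21 further pore and envelope genes, 6 had a reproducible peak at 14 h, 9 at 34 h and 5 at both, against 4.27%, 9.01% and 3.5% of all genes. Ankle1, a LEM-domain nuclease, Gle1, an mRNA export factor, and Vrk1, the kinase that releases Banf1 from chromatin, had a peak in all 6 libraries. The folds of Gle1 were 11.3, 25.0 and 15.4 at 14 h and 14.7, 17.2 and 9.51 at 34 h. Tor1aip1 and Tor1aip2, at both times, share 1 region and cannot be told apart. Syne2, a nesprin that ties nuclei to the cytoskeleton, had one at 14 h and not at 34 h, and Lemd3, Syne1, Syne3 and Tmem43 at 34 h and not at 14 h. Of 8 genes that mark muscle identity, Myod1, Myf5, Myog, Des, Mymk, Myh3, Actc1 and Ckm, none had a peak in any of the 6 libraries, as was the case for 79.8% of all genes. A peak does not measure expression, so this neither supports nor questions the label of the cells.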

How the data were processed

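Peaks of APOBEC2 ChIP-seq in 6 IP libraries of C2C12 cells were analysed, 3 at each time. The 2 inputs entered only through the authors' peak calls. The authors used Subread for alignment and MACS2 for peak calling, with mm10 as the genome, per the submitters' processing notes. For both tools the version, and for MACS2 the threshold, is not given in the sources used here. Judging by the names of the deposited lists, peaks were called in every IP library singly, with the input from the same time as control. In each list the authors give, per peak, a fold (the ratio, on a linear scale, of the summit's IP signal to its local background), −log10 p and −log10 q values, and an integer score, which was not used further. The lowest −log10 q was 2.90, 1.66 and 2.44 in the 14 h lists and 1.58, 2.03 and 2.49 in the 34 h lists, so the lists end at different significance. The lists hold no read totals. The number of fragments at a summit was solved from fold and p, to within 0.001 on the −log10 p scale, for 100% of member peaks. Median summits stood on 19 to 24 fragments and the lowest on 10, which limits the precision of each fold, and a gene without a called peak is not shown to be unbound.

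Peaks were tied by overlap of at least 1 bp to the protein-coding genes, extended by 1 kb, that a RefSeq table on GRCm38.p6 places on the autosomes and on X and Y. Exons and introns were not separated. All 37 members matched by symbol, and 2 genes of the other lists, Nup42 and Nup58, by synonym. Member and comparison lists were chosen with earlier results of these data known, so no test over a list was made. Every member is named, and fold values are given in full for members with a peak in at least 2 of 3 libraries of a time. Of the other pore, envelope and transport genes, those with such a peak are named. The presence of a peak was compared between times per gene by an exact two-sided permutation test with Benjamini-Hochberg adjustment. Whether replicates were separate cultures is not in the labels, so p-values measure only the spread between these libraries. Alternatives concerned the significance threshold, list length, number of libraries, window, summits, close neighbours, single libraries, overlap between peaks and a replicate block. The steps were tested on simulated data, where 100% of 1473 summit counts and 100% of 200 peak-to-gene assignments were recovered. The summit counts were simulated with the same formula that was then solved, so this checks the code and not the formula. The assignments used genes far from any other gene, with peaks inside the gene or beyond its 1 kb flank. Regions shared by close genes were therefore not tested. Python 3.11.15, NumPy 2.4.6, SciPy 1.17.1, pandas 2.3.3 and Matplotlib 3.10.9 were used.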

Additional observations from a re-analysis of the deposited data

How the results depend on the processing

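Of 121 values recomputed under alternatives, 109 stayed within 1.5 times of the value reported and 12 moved further. With each list limited to 768 peaks, members with a reproducible peak fell from 24 to 14 at 34 h and from 20 to 13 at both times. The share of all genes fell from 9.01% to 3.16% and from 3.5% to 2.39%. The inner ring then had 0 at 34 h. With all 3 libraries required, 13 members had one at both times, against 2.26% of all genes. The inner ring again had 0 at 34 h, against 3.95% of all genes. Leaving out genes with a close neighbour left 20 members, of which 11 had a reproducible peak at 14 h, 12 at 34 h and 10 at both. Of all genes without a close neighbour, 2.96%, 6.76% and 2.35% had one. It left 5 Y complex genes, of which 3 had one at each time, and 4 inner ring genes, of which 3 had one at each time. The member and Y complex counts in this setting moved by more than 1.5 times in part because fewer genes were counted. Leaving out single libraries gave 18 to 22 members at 14 h, 16 to 24 at 34 h and 15 to 20 at both. A peak was then required in both libraries left at the time concerned. The shares of all genes were then 2.99% to 3.73%, 3.98% to 8.44% and 2.61% to 3.42%. Inner ring members at 34 h then numbered 0 to 3. Requiring the peaks of 2 libraries to overlap, an alternative chosen after seeing the data, removed Ranbp2 at 34 h.

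Whether replicate numbers pair libraries of the 2 times was not settled. Deviations from the mean of a time correlated at -0.00743, 0.151 and 0.0963 over 21887 genes for same-numbered libraries. For libraries with different numbers they correlated at -0.183 to 0.136. The labels do not say what a replicate number shares, and no pairing was assumed. With replicate number as a block, the smallest exact p among members was 0.5 in place of 0.4, where 0.25 is the smallest that 3 pairs allow, and neither is below the threshold of 0.05. Peaks stood on few fragments and list lengths differed, so the absence of a call does not show the absence of binding.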
